A study of Mus musculus with 36 samples.

Results

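The genes studied here are 10 genes of NAD metabolism in mouse liver, built around Nampt and Nmrk1. The members were matched by symbol among the 24421 genes of the deposited count tables, and all 10 were found. They were chosen on earlier results of these same libraries, in which the difference between Fc(mML1)B3 and Fc was known, so the group differences of the 10 members are given as a description. How many members passed the threshold of the fit over all genes is stated beside the share of all genes that did, and no p-value of a member is used as evidence. Tests are given for a wider list of 51 further NAD genes and for relations between mice within a group. The wider list was also drawn up with earlier results of these libraries known, so its p-values are not independent evidence.

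Liver RNA came from 36 male C57BL/6J mice, purchased at 7 weeks of age and fed for 12 weeks a CDAHFD, a choline-deficient and methionine-poor high-fat diet that induces steatohepatitis with fibrosis. In the HFD experiment, the mice then had 2 weeks of a high-fat diet (HFD) with a weekly subcutaneous injection of Fc at 4.3 mg/kg (10 mice) or of Fc(mML1)B3 at 5 mg/kg (10 mice). In the standard diet experiment, they had 10 days of standard diet with injections of Fc (9 mice) or Fc(mML1)B3 (7 mice) at the same doses on days 1, 4 and 7. Fc(mML1)B3 is a human IgG1 Fc carrying a cyclic peptide that binds and activates mouse Met, the receptor of hepatocyte growth factor, and Fc is the same fragment without the peptide. All mice carried the same diet-induced liver disease, and livers without CDAHFD feeding or taken before the injections were not analysed here. Each library is 1 mouse, and the 4 groups differ in experiment and dosing schedule as well as in diet.

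NAD is the electron carrier of most oxidation reactions in the liver and the substrate of enzymes that consume it. Nicotinamide released by these enzymes is turned back into NAD in a salvage pathway whose rate-limiting enzyme is NAMPT, while NMRK1 phosphorylates nicotinamide riboside, and both routes meet at nicotinamide mononucleotide, which the NMNAT enzymes join to an adenylate to form NAD. The liver also makes NAD from tryptophan and nicotinic acid through NADSYN1, removes nicotinamide by methylation through NNMT, and converts NAD to NADP through NADK. Nampt is a known target of the circadian activators CLOCK and BMAL1, which bind E-boxes of the form CACGTG.

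Total counts per library were between 14949035 and 28466853, with a median of 23558194.5. The 10 members had at least 52 reads in every library, and all passed the filter for low counts in every comparison. Running numbers in the file headers, whose meaning is not given in the sources used here, put the Fc standard diet mice in a first series of 5 mice and a second series of 4 mice, and all 7 Fc(mML1)B3 standard diet mice follow on in the second series. In the Fc(mML1)B3 HFD group, mice 1 to 4 and mice 5 to 10 were numbered separately. The Fc HFD group was split as well, since mice 5 to 10 were numbered from 1 to 6 and mice 1 to 4 from 7 to 10, which runs on from the numbers of Fc(mML1)B3 mice 5 to 10 as well as from those of Fc mice 5 to 10. Which of these mice shared a series cannot be told from the numbers. Values within these series are given for the members whose HFD levels differed most between them and for the calls that were lost. Hepatocyte markers, Alb and Ttr among them, were the most abundant of the marker lists, with a summed level of 78509 to 150800.0 CPM in the 36 libraries, and skeletal muscle markers summed to at most 0.250 CPM.

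Nampt and Nmrk1 were the members with the largest differences between groups, and their promoters are shown because both genes stood higher after Fc(mML1)B3 in the same experiment. The sequences come from RefSeq on GRCm38.p6, plus strand, and end where the first annotated exon begins, which for Nmrk1 is a GENCODE exon that starts upstream of the RefSeq start. Capitals mark matches on either strand to the 6 motifs searched, which were CACGTG (E-box), TTANGTAA (D-box), AGGTCA (nuclear receptor half-site), TGACGTCA (cAMP response element), GGGCGG (GC box) and CCAAT. The Nampt stretch is chr12:32820085-32820334 and the Nmrk1 stretch is chr19:18631766-18631949.
Nampt: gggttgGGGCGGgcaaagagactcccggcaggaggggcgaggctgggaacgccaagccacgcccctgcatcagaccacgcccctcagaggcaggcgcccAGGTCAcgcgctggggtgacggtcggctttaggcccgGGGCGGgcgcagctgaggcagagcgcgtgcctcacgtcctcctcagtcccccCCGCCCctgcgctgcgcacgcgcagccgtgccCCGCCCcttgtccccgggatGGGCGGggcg
Nmrk1: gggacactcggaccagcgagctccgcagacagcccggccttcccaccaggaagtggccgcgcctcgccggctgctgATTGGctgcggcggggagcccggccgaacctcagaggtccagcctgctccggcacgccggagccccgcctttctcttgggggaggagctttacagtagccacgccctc
Nampt held 5 GC boxes, at positions -244, -114, -62, -30 and -10 from its RefSeq start, and an AGGTCA at -151. Nmrk1 held a CCAAT, read on the minus strand, at -174 from its RefSeq start. The GC content was 75.6% over 250 bases for Nampt and 71.2% over 184 bases for Nmrk1, against a median of 52.4% over the first 250 bases of 32851 promoter windows. Neither stretch held CACGTG, TTANGTAA or TGACGTCA, which says only that these letters are absent from these windows. In the full windows from 250 bases before to 50 after the start, GGGCGG was found in 35.7% of all windows, CCAAT in 37.4%, AGGTCA in 16.3%, CACGTG in 7.15%, TTANGTAA in 2.32% and TGACGTCA in 1.79%. Among the 12 windows of the members, CACGTG occurred in 2, those of Nadk and Sirt1, and GGGCGG in 8. Nnmt had no window in the table.

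Nampt, at chr12:32820335-32853369 on the plus strand of mm10, encodes the rate-limiting enzyme of nicotinamide salvage. Values are CPM, counts relative to the library size after TMM scaling of all 36 libraries. In the Fc HFD group, Nampt ranged from 91.8 to 178 CPM with a median of 127, and the mean was 128 ± 21.9 (SD, n = 10). In the Fc(mML1)B3 HFD group, it ranged from 99.5 to 157 CPM with a median of 122, and the mean was 126 ± 18.5 (SD, n = 10). These groups covered the same range, and Nampt stood 0.997-fold of Fc (95% confidence interval 0.867 to 1.15). Fc HFD mice 1 to 4 had 113 ± 14.9 CPM (SD, n = 4) and mice 5 to 10 had 137.4 ± 21.3 CPM (SD, n = 6), with overlapping ranges. Fc(mML1)B3 HFD mice 1 to 4 had 137.1 ± 25.6 CPM (SD, n = 4) and mice 5 to 10 had 119.1 ± 8.27 CPM (SD, n = 6). The mean was thus higher than with Fc in mice 1 to 4 and lower in mice 5 to 10, with overlapping ranges. In the standard diet experiment, Fc mice lay between 64.1 and 98.4 CPM with a median of 79.3 (82.9 ± 11.8, SD, n = 9). The Fc(mML1)B3 mice lay between 148 and 187 CPM with a median of 161 (165 ± 13.1, SD, n = 7). Every Fc(mML1)B3 mouse was above every Fc mouse, and Nampt was 1.98-fold higher (95% confidence interval 1.77 to 2.22), a log2 fold change of 0.99 with a standard error of 0.08. The Fc mice of the first header series had 74.2 ± 5.94 CPM (SD, n = 5) and those of the second 93.7 ± 6.59 (SD, n = 4), with no overlap between them, and both lay below all Fc(mML1)B3 mice. Within the second series, the log2 fold change was 0.81.

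Nmrk1, at chr19:18632016-18652184 on the plus strand, encodes nicotinamide riboside kinase. Under the HFD, Nmrk1 ranged from 33.5 to 61.6 CPM in Fc mice with a median of 45.3 (47.0 ± 9.78, SD, n = 10). In the Fc(mML1)B3 mice it ranged from 30.6 to 55.5 CPM with a median of 41.0 (42.0 ± 7.71, SD, n = 10). The groups overlapped nearly throughout, with a 0.902-fold level (95% confidence interval 0.756 to 1.07). With the standard diet, Nmrk1 ran from 17.9 to 34.9 CPM in Fc mice with a median of 22.6 (24.1 ± 4.70, SD, n = 9). The 7 Fc(mML1)B3 mice held between 51.0 and 57.0 CPM with a median of 54.8 (54.8 ± 1.98, SD, n = 7). No mouse of one group reached the other, and Nmrk1 was 2.26-fold higher (95% confidence interval 1.99 to 2.58), a log2 fold change of 1.18 with a standard error of 0.09. The Fc(mML1)B3 group was also the narrowest, with a coefficient of variation of 3.62% against 19.5% in the Fc mice. The first header series of Fc mice was narrow as well, at 22.7 ± 0.855 CPM (SD, n = 5). The second series of Fc mice was wide, at 25.9 ± 7.09 CPM (SD, n = 4). Within the second header series alone, Nmrk1 had a log2 fold change of 1.07.

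**Figure D1:**
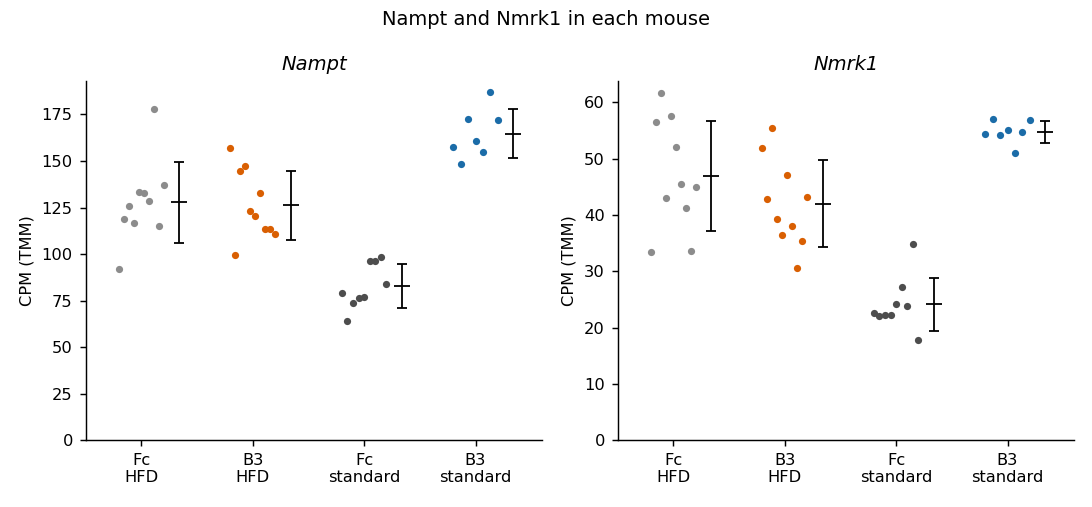
TMM-scaled CPM of Nampt and Nmrk1 (vertical axes from 0) in each of 36 mice (points) by group, with the mean and SD as bars; B3 stands for Fc(mML1)B3 and standard for the standard diet. Under the standard diet the 7 Fc(mML1)B3 mice lie above all 9 Fc mice for both genes, whereas the HFD groups overlap.

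The same 9 Fc standard diet mice stand on one side of both the effect of Fc(mML1)B3 and the comparison of the Fc groups between the experiments. Against the Fc HFD group, Nampt in these mice was 0.649-fold (95% confidence interval 0.570 to 0.738) and Nmrk1 was 0.514-fold (95% confidence interval 0.439 to 0.602). The Fc(mML1)B3 standard diet mice, with 148 to 187 CPM of Nampt, lay above 9 of the 10 Fc HFD mice. For Nmrk1, their 51.0 to 57.0 CPM fell inside the Fc HFD range of 33.5 to 61.6 CPM. The log2 effect of Fc(mML1)B3 in the standard diet experiment exceeded that in the HFD experiment by 1.01 (95% confidence interval 0.74 to 1.28) for Nampt and by 1.34 (95% confidence interval 1.01 to 1.67) for Nmrk1. Diet, dosing schedule and experiment cannot be told apart in these differences. Markers of several cell types also moved in the standard diet experiment by edgeR. Of 6 hepatocyte markers, 2 rose, Cps1 (1.14-fold) and Cyp2e1 (1.19-fold), and their summed level was 107264 to 138358 CPM in Fc mice and 115923 to 130200.0 CPM in Fc(mML1)B3 mice. Of 5 stellate cell markers, 2 fell, Des and Pdgfrb, the latter without overlap, with sums of 89.5 to 166.9 CPM and 84.9 to 113.8 CPM. Sox9, 1 of 4 cholangiocyte markers, and Fabp4, the 1 adipocyte marker tested, fell as well. In whole liver, fewer cells of a type and less RNA per cell cannot be told apart, and the part of these markers in the Nampt and Nmrk1 values was not tested.

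Nnmt, at chr9:48591890-48605077 on the minus strand, encodes the methyltransferase that removes nicotinamide at the cost of a methyl group. Under the HFD, it ranged from 61.1 to 244 CPM in Fc mice with a median of 106.0 and from 48.5 to 191 CPM in Fc(mML1)B3 mice with a median of 123. This was the widest spread of the 10 members, with a coefficient of variation of 48.4% in the Fc HFD mice, and the 1.06-fold level had a 95% confidence interval of 0.755 to 1.49. Its direction depended on which sets of mice were compared. Mice 1 to 4 had 85.0 ± 23.0 CPM with Fc and 142.6 ± 33.1 CPM with Fc(mML1)B3 (SD, n = 4 each), with no overlap, and mice 5 to 10 had 137.4 ± 63.9 CPM and 108.6 ± 39.3 CPM (SD, n = 6 each), with wide overlap. Against all Fc HFD mice, the log2 fold change was 0.33 in Fc(mML1)B3 mice 1 to 4 and -0.09 in mice 5 to 10, and it was 0.35 between Fc mice 1 to 4 and Fc(mML1)B3 mice 5 to 10. Under the standard diet, Fc mice had 66.4 to 144 CPM with a median of 87.1 (90.0 ± 23.1, SD, n = 9), and Fc(mML1)B3 mice had 98.99 to 184 CPM with a median of 111 (123 ± 29.03, SD, n = 7). The groups overlapped, since 1 Fc mouse at 144 CPM lay above most Fc(mML1)B3 mice, and Nnmt was 1.37-fold higher (95% confidence interval 1.11 to 1.68). Leaving out 1 library in turn gave log2 fold changes of 0.33 to 0.57, and the value within the second header series was 0.62.

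Nmnat1 (chr4:149468787-149485142, minus strand) encodes the nuclear enzyme that completes NAD from nicotinamide mononucleotide, and Nmnat3 (chr9:98296583-98411428, plus strand) the mitochondrial one. Nmnat3 ranged from 4.95 to 10.7 CPM in Fc HFD mice with a median of 9.03 (8.59 ± 1.70, SD, n = 10) and from 3.54 to 8.15 CPM in Fc(mML1)B3 HFD mice with a median of 6.12 (6.07 ± 1.27, SD, n = 10). The ranges overlapped, with most Fc(mML1)B3 mice low, and Nmnat3 was 0.712-fold of Fc (95% confidence interval 0.584 to 0.868). Against all Fc HFD mice, the log2 fold change was -0.59 in Fc(mML1)B3 mice 1 to 4 and -0.42 in mice 5 to 10, and it was -0.51 between Fc mice 1 to 4 and Fc(mML1)B3 mice 5 to 10. On the standard diet, Nmnat3 had 5.96 to 8.10 CPM in Fc mice and 6.64 to 9.22 CPM in Fc(mML1)B3 mice, a 1.14-fold level (95% confidence interval 1.01 to 1.28). The log2 effect in the standard diet experiment was 0.69 above that in the HFD experiment (95% confidence interval 0.35 to 1.04). Nmnat3 had the fewest reads of the members, 52 to 286 per library. Nmnat1 stayed within 7.25 to 12.43 CPM over all 36 mice, with a 1.03-fold level under the HFD (95% confidence interval 0.904 to 1.18) and 1.15-fold under the standard diet (95% confidence interval 1.01 to 1.31).

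Nadsyn1 (chr7:143795591-143822852, minus strand), the amidating enzyme at the end of the tryptophan and nicotinic acid routes, ranged from 19.0 to 31.5 CPM in Fc HFD mice and from 21.1 to 35.6 CPM in Fc(mML1)B3 HFD mice. Its level was 0.974-fold of Fc under the HFD (95% confidence interval 0.841 to 1.13) and 1.14-fold under the standard diet (95% confidence interval 1.02 to 1.27), and the groups overlapped in both experiments. Nadk (chr4:155562392-155591001, plus strand), the cytosolic NAD kinase, had 213 to 255 CPM in Fc standard diet mice with a median of 236 (234 ± 15.03, SD, n = 9) and 245 to 297 CPM in Fc(mML1)B3 mice with a median of 265 (266 ± 18.1, SD, n = 7). The groups overlapped between 245 and 255 CPM, and Nadk was 1.13-fold higher (95% confidence interval 1.06 to 1.22). Within the second header series its log2 fold change was 0.13. Under the HFD, Nadk was 1.09-fold of Fc (95% confidence interval 0.967 to 1.23).

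Among the enzymes that consume NAD, Sirt1 (chr10:63319005-63339035, minus strand), a nuclear deacetylase, was level across the groups, with means of 13.2 to 14.03 CPM. Its level was 1.01-fold of Fc under the HFD (95% confidence interval 0.873 to 1.18) and 1.00-fold under the standard diet (95% confidence interval 0.897 to 1.12). Sirt3 (chr7:140863663-140882309, minus strand), the main mitochondrial deacetylase, had group means of 81.9 to 89.7 CPM, with a 1.03-fold level under the HFD (95% confidence interval 0.859 to 1.25) and 1.09-fold under the standard diet (95% confidence interval 1.01 to 1.18). The HFD value turned with the set of mice, at log2 fold changes of 0.31 in Fc(mML1)B3 mice 1 to 4 and -0.15 in mice 5 to 10 against all Fc mice. An exon of Sirt3 overlaps one of Ric8 on the opposite strand by up to 69 bases, and counting ignored strand, so reads there cannot be assigned to either gene. Cd38 (chr5:43868827-43912374, plus strand), an NAD hydrolase of immune and other cells, ranged from 18.5 to 34.8 CPM in Fc HFD mice, 18.2 to 26.8 in Fc(mML1)B3 HFD mice, 18.2 to 23.1 in Fc standard diet mice and 14.2 to 22.1 in Fc(mML1)B3 standard diet mice. It was 0.947-fold of Fc under the HFD (95% confidence interval 0.813 to 1.10) and 0.923-fold under the standard diet (95% confidence interval 0.822 to 1.04). The Fc HFD mice were split in Cd38 without overlap, at 19.3 ± 0.559 CPM in mice 1 to 4 (SD, n = 4) and 27.2 ± 4.38 CPM in mice 5 to 10 (SD, n = 6), while Fc(mML1)B3 mice had 23.7 ± 3.27 CPM and 21.8 ± 2.57 CPM in the same order. The direction under the HFD turned with the set, from a log2 fold change of -0.08 over all mice to 0.18 between Fc mice 1 to 4 and Fc(mML1)B3 mice 5 to 10. Beside Cd38, 0 of 8 macrophage markers passed under the HFD by edgeR, DESeq2 or limma-voom, and 4 had an unadjusted edgeR p below 0.05. There 3 of 4 tested neutrophil markers and 4 of 5 B and plasma cell markers fell, and in the standard diet experiment 1 of 8 macrophage markers, Gpnmb, fell. The summed macrophage level was 596 to 1519 CPM in Fc HFD mice, 592 to 1140.0 in Fc(mML1)B3 HFD mice, 445 to 772 in Fc standard diet mice and 492.6 to 618 in Fc(mML1)B3 standard diet mice, and none of the 8 markers was at 0 in any group. Their part in the Cd38 values was not tested.

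**Figure D2:**
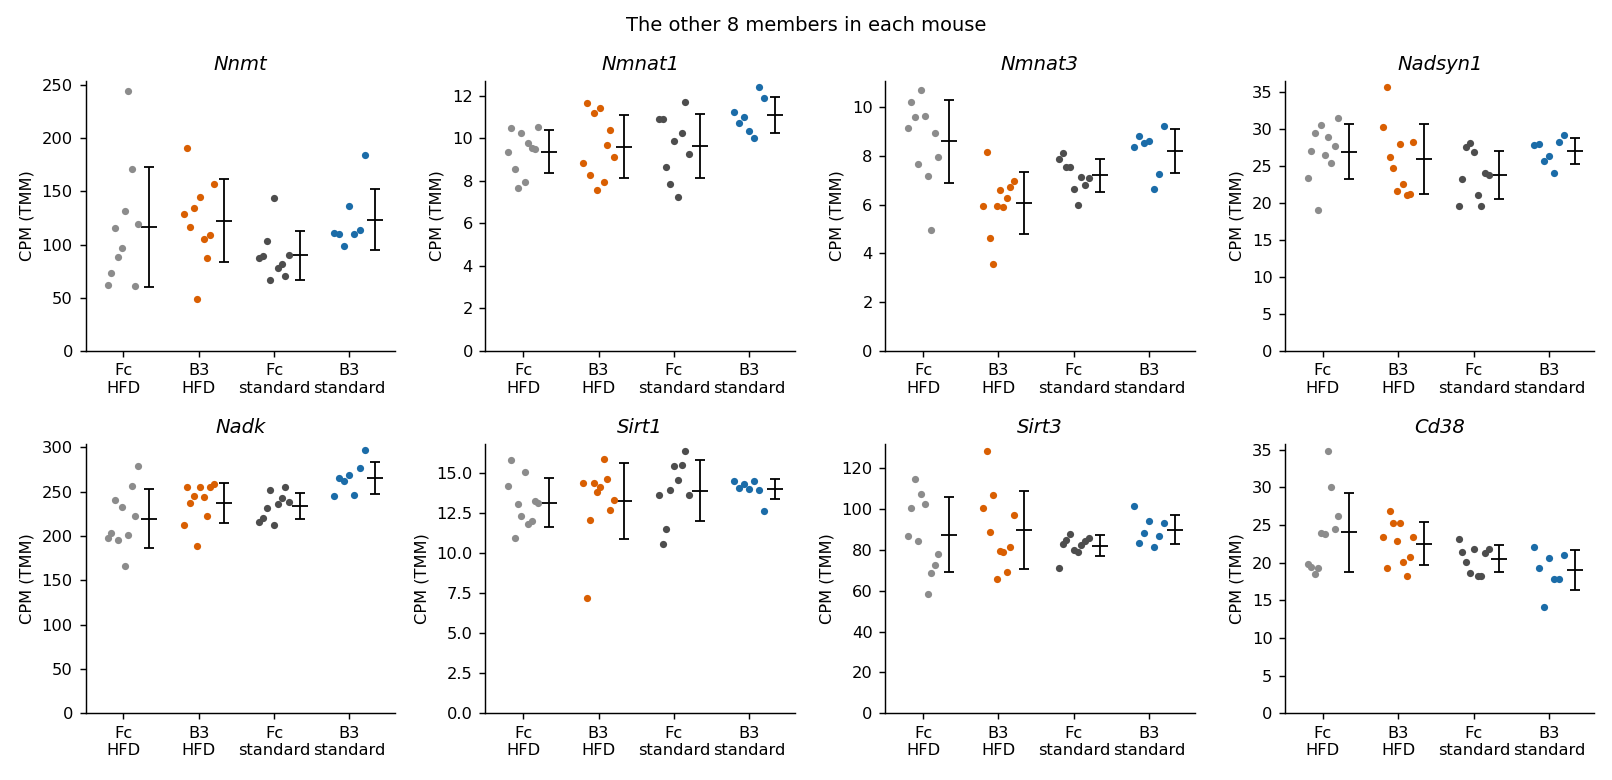
TMM-scaled CPM of the other 8 members (vertical axes from 0) in each mouse (points) by group, with the mean and SD as bars; B3 stands for Fc(mML1)B3. In all 8 genes the Fc(mML1)B3 and Fc mice of each experiment overlap.

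Read against all genes, 1 of the 10 members passed an adjusted p below 0.05 in edgeR's quasi-likelihood test under the HFD, Nmnat3, which was lower, where 14.8% of 13299 tested genes passed in either direction and 6.68% were lower. In the standard diet experiment 4 of 10 passed, all higher (Nampt, Nmrk1, Nnmt and Nadk), where 16.1% of 13570 genes passed and 8.56% were higher. With a fold change above 1.5 as well, 2 of 10 passed under the standard diet, where 2.36% of all genes did. The groups did not overlap for 2 members under the standard diet, Nampt and Nmrk1, and for 0 under the HFD, against 2.93% and 0.910% of all genes. In the difference of the effects between the experiments, 3 of 10 members passed (Nampt, Nmrk1 and Nmnat3), where 9.06% of 14105 genes did. Between the Fc groups, 2 members passed (Nampt and Nmrk1), both lower under the standard diet, where 47.9% of genes passed and 24.6% were lower. That count of members was higher with upper-quartile scaling and lower with a fold limit of 2. Since these contrasts chose the members, nothing is read from the counts. Under the HFD, members other than Nmnat3, Nmnat1 and Nadk had log2 fold changes of opposite sign in Fc(mML1)B3 mice 1 to 4 and mice 5 to 10 against all Fc mice. The Nmnat3 call under the HFD was lost against Fc(mML1)B3 mice 1 to 4 or mice 5 to 10 alone. The Nnmt call was lost in 9 of 16 fits that left out 1 library of the standard diet experiment (Fc mice 1, 2, 4, 6, 7, 8 or 9 and Fc(mML1)B3 mice 4 or 7), and the Nadk call within the second header series. The median log2 fold change of the 10 members was 0.01 in the HFD experiment and 0.19 in the standard diet experiment, beside -0.01 over all genes in both experiments.

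**Figure D3:**
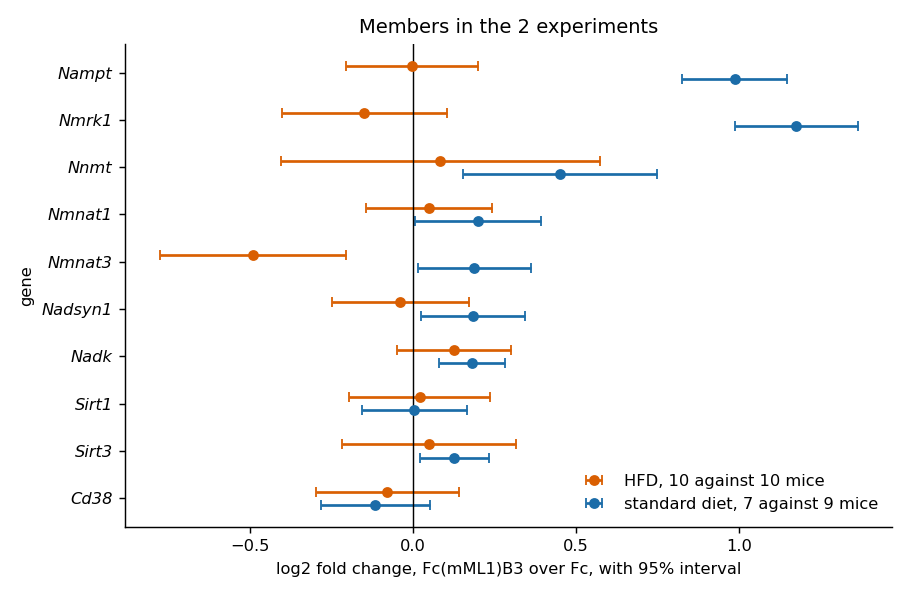
Log2 fold change of Fc(mML1)B3 over Fc (horizontal axis) for the 10 members, with 95% confidence intervals as bars, in the HFD experiment (10 against 10 mice) and the standard diet experiment (7 against 9 mice). Nampt at 0.99 and Nmrk1 at 1.18 stand apart under the standard diet, and Nmnat3 at -0.49 lies lowest under the HFD.

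Levels can be compared between genes only per length, and CPM was divided by the exon length in kb for this. In the Fc HFD group the order was Nnmt (122 ± 59.1 CPM per kb, SD, n = 10), Nadk (70.8 ± 10.7), Sirt3 (55.4 ± 11.7), Nmrk1 (28.8 ± 6.00), Nampt (28.1 ± 4.82), Nadsyn1 (10.2 ± 1.40), Nmnat1 (9.81 ± 1.06), Cd38 (8.03 ± 1.76), Nmnat3 (3.98 ± 0.788) and Sirt1 (3.37 ± 0.385). Neighbours in this order overlapped in range, except Nampt with Nadsyn1 and Cd38 with Nmnat3. In the Fc standard diet mice, Nampt (18.2 ± 2.60 CPM per kb, SD, n = 9) and Nmrk1 (14.8 ± 2.89) were separated from Sirt3 (52.0 ± 3.19) above, and Nmrk1 overlapped with Nmnat1 (10.1 ± 1.58). In the Fc(mML1)B3 standard diet mice, Nampt (36.2 ± 2.88 CPM per kb, SD, n = 7) and Nmrk1 (33.6 ± 1.22) overlapped with each other and with neither neighbour. The first 3 genes and the last 2 places, shared by Nmnat3 and Sirt1, were held by the same genes in all 4 groups.

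The wider list of 51 NAD genes covers the other enzymes of synthesis, entry, repair and consumption. In each experiment 47 of them passed the filter. Ido1 and Nmrk2 had at most 2 reads in any library, and Nmnat2 and Sarm1 at most 21. Under the HFD, 8 of 47 passed the edgeR test, 5 higher and 3 lower, which is 17.0% beside 14.8% of all genes. This count was 6 to 13 with 1 library left out in turn, and limma-voom called more. In the standard diet experiment 13 of 47 passed, 7 higher and 6 lower, which is 27.7% beside 16.1%. The median log2 fold change of the list was 0.04 in the HFD experiment and 0.02 in the standard diet experiment. Of the genes that passed, 6 did so in both experiments, which is 6 of 8 and 6 of 13. The share of all genes that passed in both was not computed, so nothing is read from this overlap. Ahcy, Afmid and Parp3 moved in the same direction, and Pnp, Nt5e and Parp10 in opposite ones. Markers of other cells also moved under the HFD, beside these calls and that of Nmnat3. Of 6 hepatocyte markers, 1 rose, Hnf4a (1.29-fold, adjusted p = 0.0208, edgeR), and their summed level was 84028 to 141355 CPM in Fc mice and 78509 to 150800.0 CPM in Fc(mML1)B3 mice. The neutrophil markers that fell were S100a8, S100a9 and Csf3r, with a summed list level of 13.3 to 64.5 CPM in Fc mice and 11.2 to 20.3 CPM in Fc(mML1)B3 mice. Those of B and plasma cells were Jchain, Mzb1, Ms4a1 and Cd79b, with sums of 9.81 to 35.8 CPM and 6.41 to 16.9 CPM. No marker of these lists found in the files was at 0 in a whole group, and the part of these markers in the NAD genes was not tested.

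Genes of the tryptophan route were tested in 8 of 9 cases, and 2 passed in each experiment. Afmid, the kynurenine formamidase, rose 1.41-fold under the HFD (adjusted p = 0.0334, edgeR) and 1.23-fold under the standard diet (adjusted p = 0.0102, edgeR). An exon of Afmid overlaps one of Tk1 on the opposite strand by up to 88 bases, and its HFD call was lost in 10 of 20 leave-one-out fits. Kmo, the kynurenine hydroxylase, rose 1.26-fold under the HFD (adjusted p = 0.0233, edgeR), and its log2 fold change was 0.02 under the standard diet. Kynu, the kynureninase, fell by 0.18 on the log2 scale under the standard diet (adjusted p = 0.0313, edgeR), a call lost in 7 of 16 leave-one-out fits. Its effects in the experiments differed by -0.42 on the log2 scale (adjusted p = 0.0431, edgeR interaction).

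Of the genes for nicotinamide riboside and mononucleotide salvage and entry, 4 of 6 were tested, and 2 passed in each experiment with opposite signs. Pnp, the purine nucleoside phosphorylase that can also split nicotinamide riboside, lay between 51.5 and 62.0 CPM in Fc HFD mice with a median of 53.9 and between 59.7 and 82.4 CPM in Fc(mML1)B3 HFD mice with a median of 71.1. The ranges overlapped between 59.7 and 62.0 CPM, and Pnp rose 1.30-fold (adjusted p = 1.21e-04, edgeR). In the standard diet mice Pnp lay between 71.4 and 88.6 CPM in the Fc group with a median of 80.4 and between 50.3 and 61.6 CPM in Fc(mML1)B3 mice with a median of 57.4. There every Fc(mML1)B3 mouse was below every Fc mouse, and Pnp fell by 0.50 on the log2 scale (adjusted p = 2.92e-06, edgeR). The effects differed by -0.86 on the log2 scale (adjusted p = 8.93e-10, edgeR interaction). Pnp has a near-identical neighbour, Pnp2, and reads matching both were left out of the counts, so its values are uncertain to that extent. Nt5e, an ecto-nucleotidase that dephosphorylates nucleoside monophosphates, went the same ways, higher 1.65-fold under the HFD (adjusted p = 0.0228, edgeR) and lower at -0.71 on the log2 scale in the standard diet experiment (adjusted p = 0.0123, edgeR), with a difference of -1.40 (adjusted p = 0.00133, edgeR interaction).

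Around Nnmt, 1 of 5 genes of the methyl donor and of methylated nicotinamide passed under the HFD and 4 of 5 under the standard diet. Of all genes, 14.8% and 16.1% passed in the same order. Ahcy, which removes S-adenosylhomocysteine, the product of every methylation, ranged from 665 to 1001 CPM in Fc HFD mice and from 835 to 1532 CPM in Fc(mML1)B3 HFD mice. It rose 1.503-fold there (adjusted p = 0.00111, edgeR), with overlapping ranges. It also rose under the standard diet, 1.42-fold (adjusted p = 2.72e-05, edgeR) from 723 to 885 CPM in Fc mice to 965 to 1373 CPM in Fc(mML1)B3 mice, with no overlap. Mat1a, which makes the methyl donor S-adenosylmethionine, rose 1.27-fold under the standard diet (adjusted p = 0.00297, edgeR), and its log2 fold change under the HFD was 0.32 (adjusted p = 0.0579, edgeR). Gnmt, a glycine methyltransferase, rose 1.23-fold under the standard diet (adjusted p = 0.00777, edgeR). Aox3, an aldehyde oxidase, fell by 0.30 on the log2 scale under the standard diet (adjusted p = 0.0272, edgeR), a call lost in 4 of 16 leave-one-out fits, and its effects in the experiments differed by -0.58 (adjusted p = 0.0357, edgeR interaction).

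Of the 9 ADP-ribosyl transferases, all tested, 3 fell under the HFD, and 1 rose and 1 fell under the standard diet. Of all genes, 6.68% were lower under the HFD, and 16.1% passed in either direction under the standard diet. Parp10 ranged from 24.8 to 35.2 CPM in Fc HFD mice and from 14.98 to 22.7 CPM in Fc(mML1)B3 HFD mice with a median of 18.9. Every Fc(mML1)B3 mouse was below every Fc mouse, and Parp10 fell by 0.65 on the log2 scale (adjusted p = 8.25e-06, edgeR). Parp10 rose 1.23-fold in the standard diet experiment (adjusted p = 0.00865, edgeR), with overlapping ranges, and the effects differed by 0.96 (adjusted p = 6.95e-08, edgeR interaction). Parp14, like Parp10 a mono-ADP-ribosyl transferase, fell by 0.42 under the HFD without overlap (adjusted p = 5.95e-04, edgeR), stood at a log2 fold change of 0.01 in the standard diet experiment, and differed between the experiments by 0.44 (adjusted p = 0.0119, edgeR interaction). Parp3 fell by 0.32 under the HFD (adjusted p = 4.52e-04, edgeR) and by 0.23 under the standard diet (adjusted p = 0.0120, edgeR), on the log2 scale. Parp1 and Parp2, the main nuclear poly-ADP-ribosyl transferases, did not pass in either experiment.

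The remaining groups held few calls. Of the 5 other sirtuins, 0 passed in either experiment by edgeR or DESeq2, and limma-voom called 1, Sirt5 under the HFD. At an unadjusted p below 0.05, edgeR had 0 of them under the HFD and 1, Sirt2, in the other experiment. Slc25a51, the mitochondrial NAD carrier, rose 1.32-fold under the standard diet (adjusted p = 0.00682, edgeR), and its log2 fold change under the HFD was 0.00. Enpp3, an ecto-nucleotide pyrophosphatase, fell by 0.42 on the log2 scale under the standard diet (adjusted p = 0.00293, edgeR). Foxo1, a transcription factor deacetylated by SIRT1, was at 29.4 to 42.4 CPM in Fc standard diet mice and 44.2 to 57.9 CPM in Fc(mML1)B3 mice. These groups did not overlap, Foxo1 rose 1.44-fold (adjusted p = 3.02e-05, edgeR), and its effect exceeded that under the HFD by 0.56 on the log2 scale (adjusted p = 0.0107, edgeR interaction). Over both main comparisons, the list's groups did not overlap for Parp10 and Parp14 under the HFD and for Pnp, Ahcy and Foxo1 under the standard diet. These are 2 and 3 of 47 tested genes, where 0.91% and 2.93% of all genes did not overlap. In the difference between the experiments, 7 of 49 tested genes of the list passed, which is 14.3% beside 9.06% of all genes. Between the Fc groups 23 of 49 did, which is 46.9% beside 47.9%.

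Within the header series, several of these calls were lost. In the second series of the standard diet experiment, Nt5e (log2 fold change -0.74), Parp3 (-0.14), Kynu (-0.16), Slc25a51 (0.35) and Aox3 (-0.31) no longer passed. Against all Fc HFD mice, Nt5e stood at 0.31 in Fc(mML1)B3 mice 1 to 4, where its call was lost, and at 0.95 in mice 5 to 10. Kmo was lost in both sets (0.33 and 0.34), Parp3 in mice 1 to 4 (-0.29) and Afmid in mice 5 to 10 (0.35). Between Fc mice 1 to 4 and Fc(mML1)B3 mice 5 to 10, a comparison added after the values were seen, 4 of 47 genes passed (Pnp, Parp3, Parp10 and Acmsd, the last at a log2 fold change of 1.13), and the calls of Afmid (0.27), Kmo (0.34), Nt5e (1.03), Ahcy (0.60) and Parp14 (-0.18) were lost. Foxo1 had 52.4 ± 7.72 CPM in Fc(mML1)B3 mice 1 to 4 (SD, n = 4) and 35.2 ± 4.34 CPM in mice 5 to 10 (SD, n = 6), on either side of the Fc HFD mean of 42.9 CPM. Its log2 fold change was 0.32 in the first of these (adjusted p = 0.0785, edgeR) and -0.28 in the second (adjusted p = 0.0464, edgeR).

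**Figure D4:**
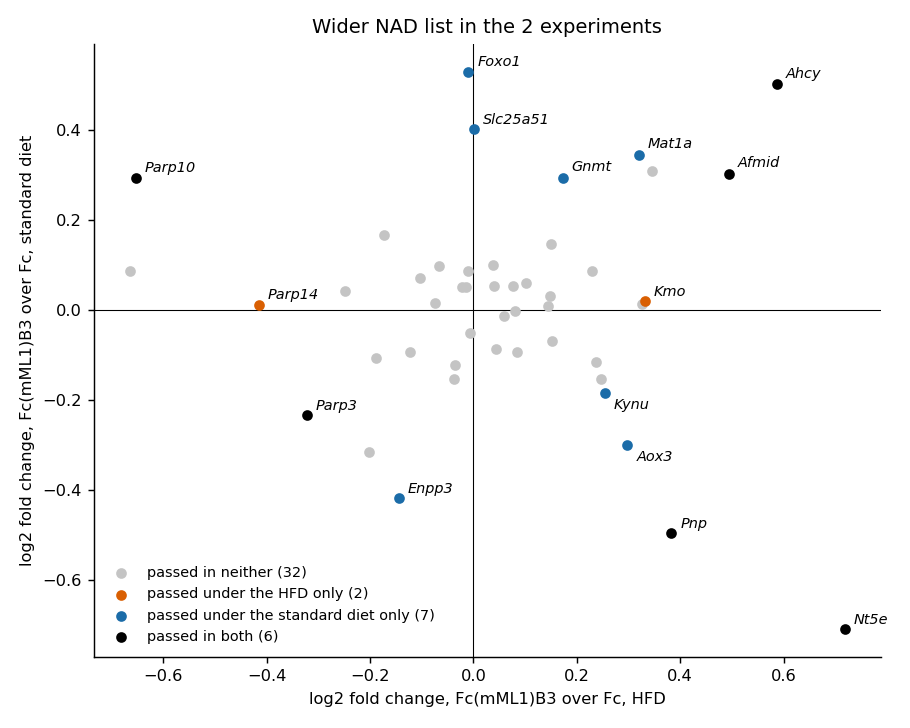
Log2 fold change of Fc(mML1)B3 over Fc under the HFD (horizontal axis) and under the standard diet (vertical axis) for the 47 tested genes of the wider NAD list, coloured by the experiment in which they passed an adjusted p below 0.05. Of these, 6 passed in both, with Ahcy and Afmid higher in both, Parp3 lower in both, and Pnp, Nt5e and Parp10 in opposite directions.

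Clock genes differed between treated and control mice in both experiments and are given beside Nampt. Under the HFD, Arntl, which encodes BMAL1, rose 15.8-fold (adjusted p = 1.08e-08, edgeR), from 0.621 to 2.12 CPM in Fc mice to 6.59 to 28.6 CPM in Fc(mML1)B3 mice. Clock rose 2.02-fold and Cry1 4.68-fold, Nr1d1 fell by 2.97 and Dbp fell by 3.31 on the log2 scale, and Per2 rose 1.33-fold, while Nampt was at 0.997-fold. The difference between the header series of the Fc(mML1)B3 HFD mice was not tested, but their values were unequal, and Arntl had 11.8 ± 4.31 CPM in mice 1 to 4 (SD, n = 4) and 23.2 ± 6.83 CPM in mice 5 to 10 (SD, n = 6), which is 10.1-fold and 19.6-fold of Fc. In the same order, log2 fold changes were -2.41 and -3.51 for Nr1d1 and -2.59 and -4.12 for Dbp. Per2 stood at log2 fold changes of 0.39 and 0.43, and its call was lost in mice 1 to 4 (adjusted p = 0.0989, edgeR). All 6 clock genes passed between Fc mice 1 to 4 and Fc(mML1)B3 mice 5 to 10, where Arntl stood 17.9-fold of Fc and Nr1d1 at -3.92 on the log2 scale. Under the standard diet, Arntl fell by 1.05 on the log2 scale (adjusted p = 0.0108, edgeR), Clock by 0.69 and Nr1d1 by 1.68, Cry1 rose 2.24-fold and Per2 2.26-fold, and Dbp had a log2 fold change of 0.14 that did not pass. Within the second header series, the log2 fold change of Arntl was -0.76 and its call was lost (adjusted p = 0.171, edgeR), while Clock, Nr1d1, Cry1 and Per2 passed. Nampt was 1.98-fold higher in the standard diet experiment. Dbp shares up to 539 exon bases with Sphk2 on the opposite strand. The part of the clock genes in the Nampt values was not tested.

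Within groups, 7 pairs of genes were related in each of the 4 groups, 28 relations in all, on log2 CPM. Of these, 1 passed after adjustment, that of Nr1d1, a circadian repressor, with Nampt in the 10 Fc HFD mice. There Pearson's r was -0.874 (2-sided permutation p = 5.00e-04, adjusted p = 0.0140) and Spearman's rho was -0.855 (permutation p = 0.00311, adjusted p = 0.0871). Without the 2 mice farthest from the median of Nr1d1, r was -0.742. Without TMM scaling, r was -0.733 (permutation adjusted p = 0.142) and -0.319 without the same number of farthest mice, so the call was lost with the other scaling. Among Fc HFD mice 5 to 10, the r of this pair was -0.807 (n = 6, exact permutation p = 0.0403, adjusted p = 0.246 over 14 relations within sets of 6 mice), and mice 1 to 4 were too few for a value. The mean of Nr1d1 was 111 CPM in mice 1 to 4 and 65.1 CPM in mice 5 to 10. In the other groups r of this pair was 0.189 (Fc(mML1)B3 HFD), -0.444 (Fc standard diet) and -0.306 (Fc(mML1)B3 standard diet). Nampt and Nmrk1 had r of 0.317, 0.453, 0.549 and 0.0954 in the same order of groups from Fc HFD on, with permutation adjusted p between 0.336 and 0.867. Cd38 and the macrophage marker Adgre1 had r of 0.722, 0.541, 0.364 and 0.241 in that order, with permutation adjusted p between 0.191 and 0.664. Among Fc HFD mice 5 to 10, where Cd38 was higher than in mice 1 to 4, their r was 0.572 (n = 6, exact permutation p = 0.274, adjusted p = 0.554).

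**Figure D5:**
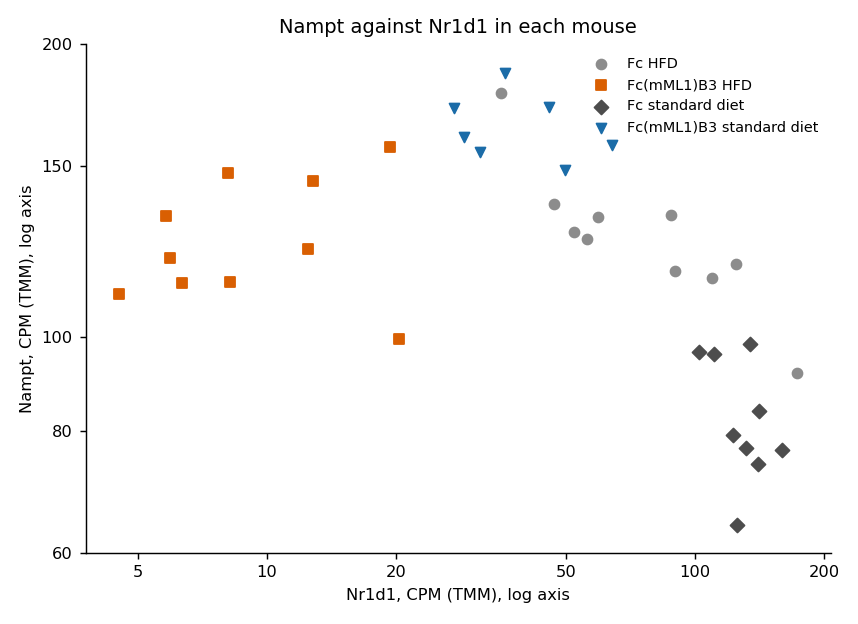
TMM-scaled CPM of Nampt (vertical axis, log scale) against Nr1d1 (horizontal axis, log scale), 1 point per mouse, marked by group. Among the 10 Fc HFD mice, Nampt falls as Nr1d1 rises (r = -0.874), and the Fc(mML1)B3 HFD mice lie at 4.53 to 20.4 CPM of Nr1d1, below all other groups.

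As a description, log2 CPM after subtraction of each group's mean was correlated over the 36 libraries with all 14105 genes tested, which share library depth and scaling. The genes most like Nampt were Ubl3 (r = 0.764), Dnaja2 (0.736), Tsku (0.703), Dnajb6 (0.703) and Akr1c19 (0.698), and those most unlike it were Rbm20 (-0.726), Nudt13 (-0.687) and Spns2 (-0.677). Nudt13, a member of the wider list, encodes a Nudix hydrolase of NAD(P)H. In the Fc(mML1)B3 standard diet mice alone, its r with Nampt had the opposite sign, 0.226, beside -0.394 for Rbm20 and -0.631 for Spns2. There the r of Nampt with its 5 most like genes lay between 0.356 and 0.851. Dnaja2 and Dnajb6 encode co-chaperones of HSP70. For Nmrk1 the highest were Pdcd6 (0.771), Ptpmt1 (0.770), Tmbim4 (0.754), Nfu1 (0.749) and Atp5j (0.743), and the lowest were Ccdc88c (-0.749), Dnmt1 (-0.749) and Il4ra (-0.723). Ptpmt1, Nfu1 and Atp5j encode mitochondrial proteins, and Dnmt1 the maintenance DNA methyltransferase. In the narrow Fc(mML1)B3 standard diet group, the r of Nmrk1 with its 5 most like genes lay between -0.252 and 0.206. Nampt with Nmrk1 had r = 0.410 on the same scale. Among the members, Nnmt with Cd38 was the most alike pair (0.502) and Nampt with Nmnat3 the least (-0.622).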

How the data were processed

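Liver RNA of 36 mice was sequenced in 4 groups, taken from the sample titles. The authors prepared directional libraries, trimmed reads with fastp, removed ribosomal RNA with Bowtie2 2.4.5, aligned to mm10 with STAR 2.7.10a and counted reads per gene with featureCounts of Subread 2.0.3. The deposited values are these raw counts. Per the file headers, both ends of a pair had to align, each end was counted as a read, strand was ignored and reads with several alignments were left out, which lowers the values of genes with near-identical copies and adds reads of opposite-strand neighbours. All columns belong to the 36 samples (0 others).

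Each experiment was tested with the quasi-likelihood test of edgeR 4.0.16 in R 4.3.3 (TMM, filterByExpr, Benjamini-Hochberg over all genes tested, threshold 0.05, no fold limit). The difference between the experiments and the comparison of the Fc groups used 1 fit over all 36 libraries. Confidence intervals are at 95%. Total counts were 14949035 to 28466853 per library. Correlations used log2 CPM with a prior count of 2 and permutation tests with SciPy 1.17.1, exact for groups under 10 mice. The fits were tested on simulated data. No pair of libraries within a group was a duplicate (147 pairs, chi-square per degree of freedom at least 6.06).

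The members, the wider list and the markers were chosen with earlier results of these data known. The genes named are the 10 members, every gene of the wider list past the threshold in the HFD or standard diet comparison, the 5 most and 3 least similar genes to Nampt and to Nmrk1 over 36 libraries, the clock genes Arntl, Clock, Nr1d1, Dbp, Per2 and Cry1, and single marker genes. Parp1, Parp2, Nmnat2, Sarm1, Ido1, Nmrk2, Adgre1, Sirt2, Sirt5 and Acmsd were named outside this rule. Exons shared with another gene were looked for in 31 named genes and found in 3 (Sirt3, Afmid and Dbp). The alternatives were DESeq2 1.42.0, limma-voom with limma 3.58.1, other scalings, no filter, other thresholds, a replicate block, header series and each library left out in turn. The comparison of Fc HFD mice 1 to 4 with Fc(mML1)B3 HFD mice 5 to 10 and the correlations within sets of 6 mice were added after seeing the data.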

Additional observations from a re-analysis of the deposited data

Results flagged for a closer look

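Within groups of mice, 7 of 100 gene and group combinations held 1 mouse far from the others by Dixon's criterion, where chance gives about 1 in 20. These were Nampt in Fc HFD mouse 8 (178 CPM, the others 91.8 to 136.8), Nnmt in Fc standard diet mouse 5 (144 CPM, the others 66.4 to 103), Sirt1 in Fc(mML1)B3 HFD mouse 2 (7.19 CPM, the others 12.1 to 15.9) and Sirt1 in Fc(mML1)B3 standard diet mouse 7 (12.7 CPM, the others 13.99 to 14.5). In the wider list they were Foxo1 in Fc HFD mouse 10 (54.3 CPM), Gnmt in Fc standard diet mouse 3 (1693 CPM) and Kmo in Fc(mML1)B3 standard diet mouse 7 (297 CPM).

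For 7 genes of the wider list, the edgeR interaction test gave a different response to Fc(mML1)B3 in the 2 experiments. As log2 fold change under the standard diet minus that under the HFD, the difference was 0.96 for Parp10, 0.56 for Foxo1, 0.44 for Parp14, -0.42 for Kynu, -0.58 for Aox3, -0.86 for Pnp and -1.40 for Nt5e. For the members, whose choice rested on these contrasts, the same difference is a description. It was 1.01 for Nampt, 1.34 for Nmrk1 and 0.69 for Nmnat3. These 3 of 10 are listed because they passed the same test, which is no support. For Foxo1, the HFD effect had opposite signs in Fc(mML1)B3 mice 1 to 4 (0.32) and 5 to 10 (-0.28). Diet, dosing schedule and experiment cannot be told apart in these differences.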

How the results depend on the processing

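The members were chosen on these contrasts, so their values and counts under other settings are a description and no support. Leaving out 1 library gave log2 fold changes under the standard diet of 0.95 to 1.02 for Nampt and 1.13 to 1.26 for Nmrk1. Under the HFD, the members' count of 1 became 0 with a fold limit of 1.5, with a fold limit of 2 (and an adjusted p under 0.1), and against Fc(mML1)B3 mice 1 to 4 or mice 5 to 10. The wider list's count of 8 became 14 with limma-voom, 3 and 0 with these fold limits, 5 with mice 1 to 4, 4 between Fc mice 1 to 4 and Fc(mML1)B3 mice 5 to 10 (chosen after seeing the data), and 6 to 13 with 1 library left out, where 13 came without Fc(mML1)B3 HFD replicate 5. Under the standard diet, the members' 4 became 2 and 1 with the fold limits and 3 to 4 with 1 library left out, and the wider list's 13 became 1 and 0, 8 within the second header series, and 11 to 14 with 1 library left out. For the difference between the experiments, the wider list's 7 became 11 with limma-voom and 3 and 1 with the fold limits. Between the Fc groups, the members' 2 became 5 with upper-quartile scaling and 0 with the fold limit of 2, and the wider list's 23 became 7 and 3 with the fold limits. The correlation of Nr1d1 with Nampt in Fc HFD mice was -0.733 without TMM, and within mice 5 to 10 it did not pass after adjustment (-0.807, exact permutation adjusted p = 0.246, n = 6). Replicate numbers did not pair the mice: same-numbered mice had correlations of -0.664 to 0.313 over 10 pairs under the HFD and -0.175 to -0.0189 over 7 pairs under the standard diet. With a replicate block, which left out the 2 Fc standard diet mice without a same-numbered partner, the members' counts were 1 and 3 and the wider list's counts 6 and 8 under the HFD and the standard diet. No called result changed sign. The cause of these changes was not tested. At the same adjusted p, adding a fold limit can only keep or remove calls. Nmnat2, with 0 to 18 reads per library, and Sarm1, with 0 to 21, are limited by depth.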
